A study of Mus musculus with 16 samples.

Results

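Activated T cells enlarge before they divide, and the transcription factor MYC, which is induced through the T cell receptor, drives much of that growth. MYC binds DNA as a dimer with MAX, while MXD1, MXD4 and MNT compete for MAX and repress. Known MYC targets include RNA polymerase I factors, which transcribe ribosomal DNA, the small nucleolar ribonucleoproteins that modify ribosomal RNA, the nucleolar factors that assemble ribosomal subunits, and enzymes of polyamine and nucleotide synthesis. Here 43 listed genes of this kind, chosen by symbol, were followed in mouse CD8 T cell clones. Of these, 42 had a probe set annotated with that symbol alone and were measured among 19938 genes. Noc2l had none and is not analysed here. For the 5 members with several probe sets the brightest was used.

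Expression was measured in 2 clones on Affymetrix whole-transcript arrays, 4 per group and 16 in all. The conventional clone is labelled cyclosporine-sensitive and the unconventional clone cyclosporine-resistant. Cells of all 4 groups were grown with IL-1a, IL-6, IL-7, IL-15, TNF-α and interferons and then activated by plate-bound anti-CD3 without recombinant cytokines, either alone or with cyclosporine A (CsA) at 1 ug/ml, an inhibitor of the phosphatase calcineurin. Unstimulated cells are not analysed here, so each comparison is between activated cells. Each kind is represented by 1 clone, so the clone and its kind cannot be told apart. Nothing in the labels says that replicates came from separate cultures, and p-values then measure only the spread between these arrays, which may be technical.

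A level is the deposited log2 value of a probe set, and a change is a difference of log2 values with its standard error (SE). The p-values are from limma across all 19938 genes with Benjamini-Hochberg adjustment, and a gene was called, and is said to rise or fall, at an adjusted p under 0.05. Arrays of 1 group correlated at 0.995 to 0.998 across probe sets. The T cell markers Cd3e, Cd3d, Cd3g, Ptprc, Cd8a and Cd8b1 had group means between 8.56 and 12.74, and of 7 such markers, Cd2 included, 6 were called with CsA in the conventional clone and 4 in the unconventional clone. Cd8a changed by -0.58 and -1.75 with CsA, both called, and the unconventional clone differed from the conventional clone by -2.19 with anti-CD3 alone and by -3.36 with CsA. Cd2 was low in all groups (3.99 to 4.25). Cd4 lay between 4.21 and 4.32. Of 16 markers of B cells, macrophages and dendritic cells, epithelium and fibroblasts, 1 was called in the conventional clone and 3 in the unconventional clone. The mean over the list lay between 3.97 and 4.07 for B cells, 4.70 and 5.00 for macrophages and dendritic cells, and 5.22 and 5.43 for epithelium and fibroblasts. Itgax, which activated T cells can also express, was called higher with CsA in both clones, from 8.91 to 10.23 and from 9.28 to 10.04. The part of these markers in the results below was not tested. In bulk RNA, fewer cells in a growth state and less RNA per cell cannot be told apart.

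With CsA, nearly the whole set fell in the conventional clone. Of 42 members, 37 fell, 2 rose and 3 were not called, and the median change was -0.54 against 0.02 over all genes. Of all genes, 15.5% were called lower and 15.9% higher. The members are bright, 36 of them in the brightest 10% of genes, where 35.1% were called lower and 30.2% higher. In the unconventional clone 29 members fell, the same 2 rose and 11 were not called, with a median change of -0.27. There 12.3% of all genes were called lower and 12.6% higher, and 25.9% and 23.0% of the brightest 10%. All 29 were among the 37 that fell in the conventional clone. The arrays of the groups did not overlap for 40 members in the conventional clone (30.5% of all genes) and for 32 in the unconventional clone (27.2% of all genes). Among the 1994 genes in the brightest 10%, the groups did not overlap for 1429 and 1042.

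**Figure D1:**
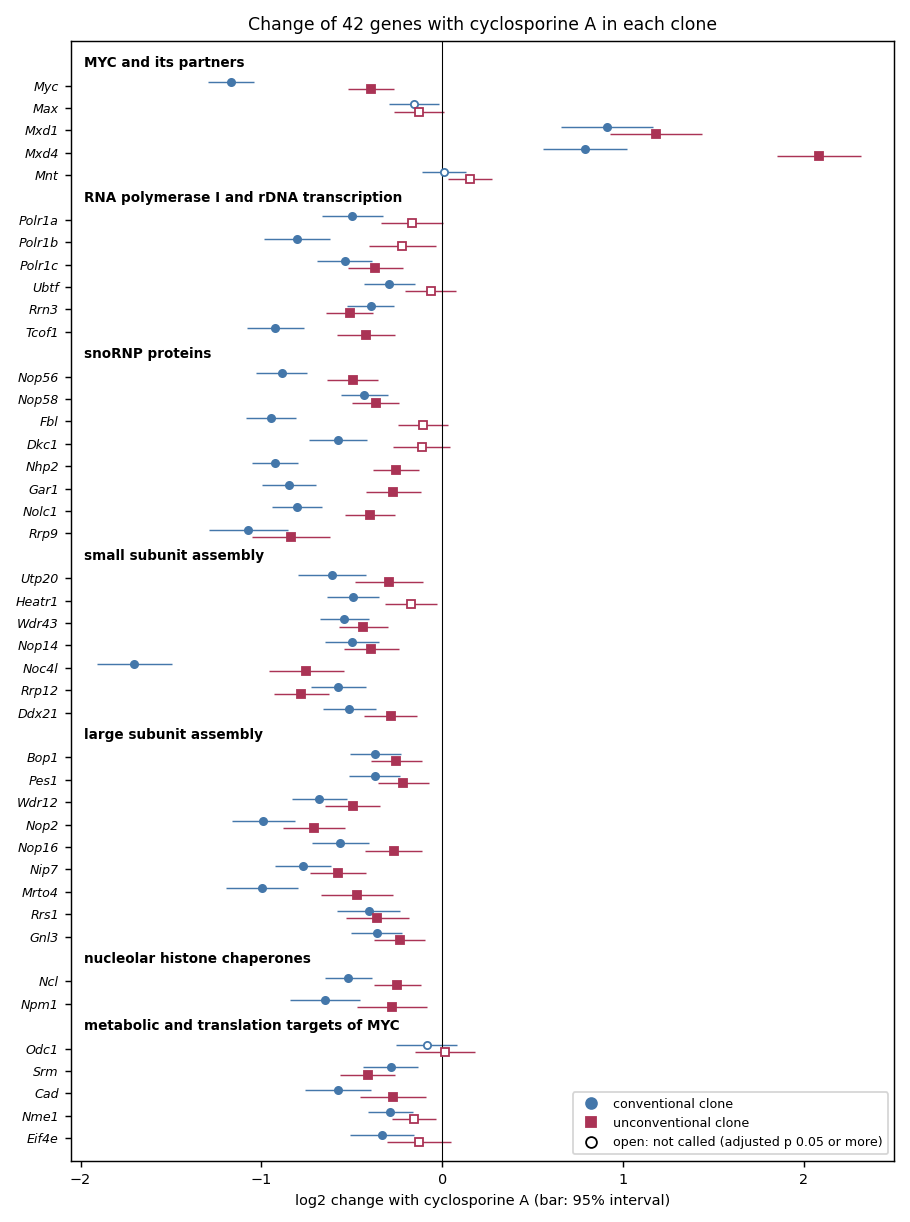
Log2 change with CsA of each of the 42 measured genes on the horizontal axis, in the conventional clone (circles) and the unconventional clone (squares), with 95% intervals, in order of role; open symbols were not called. The genes outside the MYC group lie left of 0 in the conventional clone, from -1.70 (Noc4l) to -0.09 (Odc1), while Mxd1 and Mxd4 lie to the right in both clones.

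Myc itself fell in both clones. Its level on the 4 conventional arrays was 12.36, 12.50, 12.39 and 12.40 with anti-CD3 alone and 11.20, 11.29, 11.23 and 11.24 with CsA. On the unconventional arrays it was 12.15, 12.24, 12.14 and 12.17 with anti-CD3 alone and 11.77, 11.71, 11.76 and 11.88 with CsA. No 2 of the 4 groups overlapped, and the lowest arrays were those of the conventional clone with CsA. The change was -1.17 (SE 0.06, adjusted p = 8.63e-12) in the conventional clone, a 2.25-fold fall, and -0.39 (SE 0.06, adjusted p = 5.07e-05) in the unconventional clone. The effects differed by 0.78 (SE 0.09, adjusted p = 1.88e-06).

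Of the repressors that compete for MAX, both MXD genes rose. Mxd4 stood at 6.93, 6.85, 6.66 and 6.72 on the conventional arrays with anti-CD3 alone and at 7.47, 7.69, 7.65 and 7.51 with CsA. On the unconventional arrays it stood at 6.75, 6.80, 6.53 and 6.84, then 9.01, 8.86, 8.42 and 8.97. The unconventional arrays with CsA were above all others, and in neither clone did the groups overlap. Mxd4 rose by 0.79 (SE 0.11, adjusted p = 7.75e-06) in the conventional clone and by 2.08 (SE 0.11, adjusted p = 2.59e-11), or 4.24-fold, in the unconventional clone. The difference of these effects, 1.29, was called (SE 0.16, adjusted p = 4.66e-06). Mxd1 went from 6.10 ± 0.12 to 7.01 ± 0.08 (SD, n = 4) in the conventional clone and from 6.22 ± 0.04 to 7.40 ± 0.36 (SD, n = 4) in the unconventional clone. These rises of 0.91 and 1.18 were called, and their difference of 0.27 (95% interval -0.09 to 0.63) was not.

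Max, the shared partner, was not called in either clone, with changes of -0.16 (adjusted p = 0.0836) and -0.13 (adjusted p = 0.199). In the conventional clone it was called lower when only genes at or above the median level were tested (adjusted p = 0.0351), with a trended, robust variance (adjusted p = 0.0428) and without conventional CsA replicate 2 (-0.19). Mnt, a further repressor that pairs with MAX, went from 6.96 ± 0.03 to 6.97 ± 0.05 (SD, n = 4) in the conventional clone. Mnt changed by 0.15 in the unconventional clone (adjusted p = 0.0593) and was called higher with the level filter (adjusted p = 0.018) and without anti-CD3 replicate 1 (0.18).

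**Figure D2:**
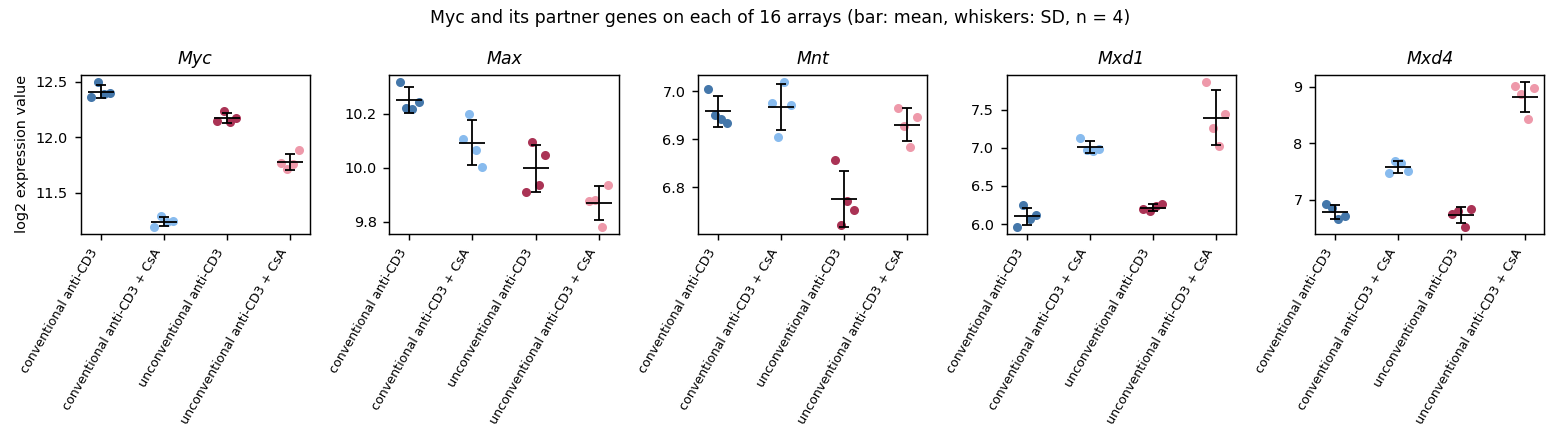
Log2 expression values of Myc and its dimer partners and competitors (vertical axis, a separate scale per gene that does not start at 0) on each of the 16 arrays, by group, with the mean and SD of 4 arrays. Myc is lowest in the conventional clone with CsA (11.24 ± 0.04, SD), and Mxd4 is highest in the unconventional clone with CsA (8.82 ± 0.27, SD).

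A further 8 genes of the MYC network were listed, of which 3 fell and 1 rose in the conventional clone, and 1 fell and 2 rose in the unconventional clone. Of all genes 15.5% fell and 15.9% rose in the conventional clone, and 12.3% and 12.6% in the unconventional clone. Among genes at or above the median level these shares were 28.3% and 27.2%, then 22.8% and 22.3%. On a list of 8 genes, the counts of both clones lie near such shares. Mlx, the partner of MXD proteins in a related dimer network, rose by 0.45 and 0.23. Its second call was lost after median centring of the arrays (0.18) and on leaving out unconventional anti-CD3 replicate 1 or unconventional CsA replicates 1 or 2. The paralog Mycn fell by 0.61 in the conventional clone and changed by -0.05 (adjusted p = 0.857) in the unconventional clone, a called difference (adjusted p = 0.0207). Mxd3 rose by 0.40 in the unconventional clone and changed by -0.18 in the conventional clone (adjusted p = 0.255), and this difference was called as well (adjusted p = 0.0126). The conventional change was called without conventional CsA replicate 3 (-0.28, adjusted p = 0.0444). Mga, a large MAX-binding protein, fell by 0.40 and 0.28. The second of these calls was near the threshold (adjusted p = 0.047). It was lost with the replicate block (adjusted p = 0.0599), with quantile normalization (0.0576), with only the groups of the comparison (0.0798) and without any of 10 arrays, namely conventional anti-CD3 replicates 2, 3 or 4, conventional CsA replicates 1 or 4, unconventional anti-CD3 replicates 1 or 3 or unconventional CsA replicates 1, 2 or 4.

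MYC-MAX dimers prefer the E-box CACGTG, which reads the same on both strands. RefSeq promoter windows of assembly GRCm38.p6, from 250 bases before to 50 after the start, were at hand for 34 of the 42 members. CACGTG occurred in a window of 10 of the 34 (29.4%), against 1483 of 15614 genes on the array and 14.8% of the brightest 10%. By single windows of the same length, 11 of 43 held it (25.6%), against 7.15% of all 32851. Outside the MYC group, 7 members held the motif and 23 did not. Their median changes were -0.40 and -0.58 in the conventional clone and -0.30 and -0.27 in the unconventional clone, and the ranges overlapped. A match describes the letters in the window and is not a measured binding site. A link between the motif and the changes was not tested.

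The 250 bases before the start are shown for 4 members: Nop2 and Rrn3, which fell in both clones and hold the motif, Mxd4, which rose and holds it, and Noc4l, which fell furthest and does not hold it. Each is written 5′ to 3′ on the gene's strand with CACGTG in capitals. The windows lie at chr6:125131633-125131882 (plus strand) for Nop2, chr16:13780449-13780698 (plus strand) for Rrn3, chr5:34187711-34187960 (minus strand) for Mxd4 and chr5:110653383-110653632 (minus strand) for Noc4l.
Nop2: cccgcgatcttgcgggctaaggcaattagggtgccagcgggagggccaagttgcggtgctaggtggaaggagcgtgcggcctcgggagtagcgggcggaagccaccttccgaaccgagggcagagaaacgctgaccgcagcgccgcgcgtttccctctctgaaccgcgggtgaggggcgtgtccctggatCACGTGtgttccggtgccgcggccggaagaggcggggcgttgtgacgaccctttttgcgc
Rrn3: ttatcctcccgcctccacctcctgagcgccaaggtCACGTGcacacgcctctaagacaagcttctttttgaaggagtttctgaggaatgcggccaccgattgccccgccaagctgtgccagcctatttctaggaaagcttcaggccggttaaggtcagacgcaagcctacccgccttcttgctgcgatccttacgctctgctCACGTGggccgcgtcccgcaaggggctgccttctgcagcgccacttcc
Mxd4: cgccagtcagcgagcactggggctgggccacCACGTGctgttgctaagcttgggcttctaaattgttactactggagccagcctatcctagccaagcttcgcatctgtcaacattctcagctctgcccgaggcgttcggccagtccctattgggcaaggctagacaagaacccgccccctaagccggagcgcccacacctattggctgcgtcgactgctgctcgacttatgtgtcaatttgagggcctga
Noc4l: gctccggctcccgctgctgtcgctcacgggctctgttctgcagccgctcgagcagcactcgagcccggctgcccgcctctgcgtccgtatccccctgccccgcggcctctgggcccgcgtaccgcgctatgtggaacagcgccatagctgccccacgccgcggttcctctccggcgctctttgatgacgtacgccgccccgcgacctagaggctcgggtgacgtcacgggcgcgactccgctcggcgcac
The motif lies 60 bases before the start in Nop2, 215 and 48 bases before it in Rrn3, and 219 bases before it in Mxd4.

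Of the 6 genes that serve ribosomal DNA transcription, all fell in the conventional clone and 3 in the unconventional clone. Tcof1, whose product treacle supports synthesis of ribosomal RNA, had the largest fall of the 6 in the conventional clone. It stood at 8.77, 8.71, 8.73 and 8.55 with anti-CD3 alone and at 7.80, 7.85, 7.79 and 7.63 with CsA. Unconventional arrays stood at 9.25, 9.41, 9.48 and 9.45, then 8.89, 8.91, 9.11 and 8.98. All unconventional arrays were above all conventional ones, and within each clone the groups did not overlap. The change was -0.92 (SE 0.08, adjusted p = 6.44e-09) in the conventional clone and -0.42 (SE 0.08, adjusted p = 0.00024) in the unconventional clone, with a difference of 0.50 (adjusted p = 0.00234).

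Rrn3, which brings RNA polymerase I to its promoter, had the largest fall of this role in the unconventional clone. Its conventional arrays went from 10.47, 10.49, 10.44 and 10.44 to 10.04, 10.11, 10.11 and 10.00. Its unconventional arrays went from 10.55, 10.73, 10.61 and 10.60 to 10.06, 10.06, 10.22 and 10.10. The groups were apart in both clones. The changes were -0.40 and -0.51 (SE 0.06 each), and their difference of -0.12 (95% interval -0.30 to 0.07) was not called.

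The polymerase subunits Polr1a and Polr1b fell in the conventional clone by 0.50 and 0.80. In the unconventional clone they changed by -0.17 (adjusted p = 0.165) and -0.22 (adjusted p = 0.08), and Polr1b was called there without anti-CD3 replicate 1 (-0.31), after median centring (-0.27), among genes at or above the median level (adjusted p = 0.0414), with a trended, robust variance (adjusted p = 0.0335) and with the replicate block (adjusted p = 0.0428). The difference of effects was called for Polr1b (0.58, adjusted p = 0.00218). For Polr1a it was 0.33 (adjusted p = 0.0579), not called, but it was called with quantile normalization (adjusted p = 0.0434), the level filter (0.0285), the trended variance (0.0252), the replicate block (0.0193) and without conventional anti-CD3 replicate 4, conventional CsA replicate 2 or unconventional CsA replicate 1. Polr1c, a subunit shared with RNA polymerase III, fell in both clones (-0.54 and -0.37). Ubtf, which binds ribosomal DNA, fell by 0.29 in the conventional clone and changed by -0.06 (95% interval -0.21 to 0.08) in the unconventional clone.

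Of the 8 proteins of small nucleolar ribonucleoproteins, all fell in the conventional clone (median -0.87) and 6 in the unconventional clone (median -0.32). The difference of effects was called for 6 of the 8, all upward, against 8.51% of all genes called upward and 7.78% downward. Rrp9, a protein specific to the U3 particle, had the largest fall of the 8 in both clones. On the conventional arrays it went from 11.01, 11.14, 11.14 and 10.92 to 10.09, 10.00, 9.98 and 9.85. Unconventional arrays went from 10.88, 11.42, 11.26 and 11.47 to 10.33, 10.39, 10.42 and 10.54. The groups of each clone were apart, and unconventional anti-CD3 replicate 1 was the lowest array of its group. The changes were -1.07 (adjusted p = 6.13e-08) and -0.84 (adjusted p = 3.82e-06), with an SE of 0.10 each, and their difference of 0.23 (95% interval -0.07 to 0.54) was not called.

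Fibrillarin (Fbl), the methyltransferase of box C/D particles, stood at 10.76, 10.84, 10.72 and 10.70 on the conventional arrays with anti-CD3 alone and at 9.86, 9.74, 9.91 and 9.72 with CsA. Unconventional levels stood at 10.95, 11.00, 10.97 and 11.08, then 10.96, 10.92, 10.89 and 10.81, and those groups overlapped. It fell by 0.95 (adjusted p = 5.09e-10) in the conventional clone and changed by -0.11 (95% interval -0.24 to 0.03) in the unconventional clone, a called difference of 0.84 (SE 0.09, adjusted p = 1.59e-06). A dimmer probe set of Fbl gave -0.74 and -0.10.

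Nop56 and Nop58, which form the core of the same particles, fell by 0.89 and 0.43 in the conventional clone and by 0.49 and 0.37 in the unconventional clone. The difference was called for Nop56 (0.39, adjusted p = 0.0058) and not for Nop58 (0.06, 95% interval -0.12 to 0.25). Of the box H/ACA proteins, Nhp2 fell by 0.92 and 0.25 and Gar1 by 0.85 and 0.27. The pseudouridine synthase Dkc1 fell by 0.58 in the conventional clone and changed by -0.11 (adjusted p = 0.355) in the unconventional clone, where it was called without anti-CD3 replicate 1 (-0.19). Nolc1, a chaperone of these particles, fell by 0.80 and 0.40. The differences of effects were called for Nhp2 (0.67), Gar1 (0.58), Dkc1 (0.46) and Nolc1 (0.40).

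Of 7 factors of small subunit assembly, all fell in the conventional clone and 6 in the unconventional clone. Noc4l, a factor of small subunit maturation, had the largest fall of all members. Its level was 10.67, 10.67, 10.62 and 10.52 on the conventional arrays with anti-CD3 alone and 8.98, 9.07, 8.86 and 8.76 with CsA. The unconventional arrays read 10.72, 11.23, 11.13 and 11.25, then 10.28, 10.28, 10.37 and 10.41. The conventional arrays with CsA were below all others, and the groups were apart in both clones. The change was -1.70 (SE 0.10, adjusted p = 3.85e-11), a 3.25-fold fall, in the conventional clone and -0.75 (SE 0.10, adjusted p = 7.29e-06) in the unconventional clone. The difference of 0.95 was called (adjusted p = 4.73e-05).

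Rrp12, which serves the maturation and export of subunits, went from 9.63, 9.73, 9.67 and 9.43 to 9.05, 9.11, 9.06 and 8.95 on the conventional arrays. For the unconventional clone the arrays went from 10.11, 9.96, 9.90 and 9.95 to 9.13, 9.20, 9.26 and 9.21. The groups were apart in both clones. The changes were -0.57 and -0.78 (SE 0.07 each), and their difference of -0.21 (95% interval -0.42 to 0.01) was not called.

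Components of the early processing machinery and an RNA helicase made up the rest of this role. Utp20 fell by 0.61 and 0.30, and the call in the unconventional clone did not hold without unconventional anti-CD3 replicate 1 or unconventional CsA replicates 1 or 4 (-0.27 to -0.24). Wdr43 fell by 0.54 and 0.44, Nop14 by 0.50 and 0.39, and the helicase Ddx21 by 0.51 and 0.29. Heatr1, which also promotes transcription of ribosomal DNA, fell by 0.49 in the conventional clone. Its unconventional change was -0.17 (adjusted p = 0.0781), and it was called after median centring (-0.22), with the level filter (adjusted p = 0.0327), the trended variance (0.0292) and the replicate block (0.0467), and without CsA replicate 3 (-0.22). Its difference of effects, 0.32, was called (adjusted p = 0.0284) but not after median centring (0.29, adjusted p = 0.0834), and not without conventional anti-CD3 replicates 2 or 3, conventional CsA replicates 1 or 4 or unconventional CsA replicates 2 or 3.

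All 9 measured factors of large subunit assembly fell in both clones. Mrto4, a nuclear relative of the ribosomal stalk protein P0, went from 11.22, 11.20, 11.23 and 11.18 to 10.05, 10.24, 10.24 and 10.30 on the conventional arrays. On the unconventional arrays it went from 11.03, 11.51, 11.56 and 11.51 to 10.87, 10.97, 10.88 and 11.02. Unconventional anti-CD3 replicate 1 lay close above the arrays with CsA, and the groups were apart in both clones. The changes were -0.996 (adjusted p = 5.25e-08) and -0.47 (adjusted p = 0.000776), with an SE of 0.10 each, and the difference of 0.53 was called (adjusted p = 0.00919). A dimmer probe set of Mrto4 gave -0.94 and -0.47.

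Nop2, a methyltransferase of large subunit ribosomal RNA, had the largest fall of this role in the unconventional clone. It went from 10.92, 11.04, 11.01 and 10.81 to 9.95, 10.08, 10.01 and 9.78 in the conventional clone. Its unconventional arrays went from 10.87, 11.16, 11.10 and 11.12 to 10.30, 10.27, 10.43 and 10.42. The groups were apart in both clones. The changes of -0.99 and -0.71 (SE 0.08 each) differed by 0.28 (95% interval 0.04 to 0.52), which was not called after adjustment (adjusted p = 0.121).

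Bop1, Pes1 and Wdr12 form the PeBoW complex. They fell by 0.37, 0.37 and 0.68 in the conventional clone and by 0.25, 0.22 and 0.49 in the unconventional clone. The fall of Pes1 in the unconventional clone was lost with quantile normalization (-0.14) and on leaving out unconventional anti-CD3 replicates 2 or 4 or unconventional CsA replicates 1 or 4 (-0.21 to -0.17). Nip7 fell by 0.77 and 0.58, Nop16 by 0.56 and 0.27, Rrs1 by 0.41 and 0.36, and nucleostemin (Gnl3), a nucleolar GTPase, by 0.36 and 0.24.

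The abundant nucleolar proteins nucleophosmin (Npm1) and nucleolin (Ncl) fell in both clones. Npm1 was at 12.54, 12.37, 12.31 and 12.40 on the conventional arrays with anti-CD3 alone and at 11.67, 11.86, 11.59 and 11.90 with CsA. Those of the unconventional clone read 12.61, 12.50, 12.79 and 12.34, then 12.28, 12.26, 12.22 and 12.37. The groups were apart in the conventional clone and overlapped in the unconventional clone. The changes were -0.65 (adjusted p = 9.66e-06) and -0.28 (adjusted p = 0.0309), with an SE of 0.09 each. The second call was lost with the replicate number as a block (adjusted p = 0.0521) and on leaving out unconventional anti-CD3 replicates 1 or 3 or unconventional CsA replicates 1, 2 or 3 (-0.28 to -0.20). The difference of effects for Npm1, 0.37, was not called (adjusted p = 0.0601). It was called with quantile normalization (adjusted p = 0.0314), the level filter (0.0324) and the trended variance (0.025). Without conventional CsA replicates 2 or 4 or unconventional anti-CD3 replicate 3 it was called as well. Ncl fell by 0.52 and 0.25. Its difference of effects, 0.27, was called (adjusted p = 0.0401), but not after median centring (0.25), not with cyclic loess (0.23), not with the block (adjusted p = 0.0647), and not without any of 11 arrays, namely conventional anti-CD3 replicates 1, 2 or 3, conventional CsA replicates 1 or 3, unconventional anti-CD3 replicates 2 or 4 or unconventional CsA replicates 1, 2, 3 or 4.

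Of the 5 growth enzymes and translation factors, 4 fell in the conventional clone and 2 in the unconventional clone. Of the brightest 10% of genes, 35.1% and 25.9% fell, and the count of 2 of 5 lies near the second share. Cad, which starts pyrimidine synthesis, went from 10.24, 10.33, 10.45 and 10.01 to 9.69, 9.68, 9.72 and 9.64 on the conventional arrays. Arrays of the unconventional clone went from 10.72, 10.50, 10.51 and 10.50 to 10.13, 10.30, 10.42 and 10.30. The groups were apart in both clones. The changes were -0.58 (adjusted p = 2.18e-05) and -0.27 (adjusted p = 0.0268), and the second call was lost with quantile normalization (-0.22) and on leaving out unconventional anti-CD3 replicate 1 or unconventional CsA replicates 1, 2 or 4 (-0.27 to -0.22).

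Spermidine synthase (Srm) went from 12.12, 12.16, 12.17 and 11.88 to 11.80, 11.80, 11.80 and 11.79 on the conventional arrays. The unconventional arrays went from 12.10, 12.26, 12.18 and 12.27 to 11.73, 11.90, 11.70 and 11.82. The groups were apart in both clones, and the changes were -0.29 (adjusted p = 0.00441) and -0.41 (adjusted p = 0.000213). Ornithine decarboxylase (Odc1), the enzyme that opens the same polyamine pathway, was not called in either clone, at -0.09 (95% interval -0.25 to 0.08) and 0.02 (95% interval -0.15 to 0.18). A second probe set of Odc1, also bright at 11.58, gave -0.19 and 0.03. The nucleoside diphosphate kinase Nme1 fell by 0.29 and changed by -0.16 in the unconventional clone (adjusted p = 0.0593), where it was called after median centring (-0.20), with the level filter (adjusted p = 0.0185) and with the trended variance (0.0222). The cap-binding factor Eif4e fell by 0.33 in the conventional clone and changed by -0.13 in the unconventional clone (adjusted p = 0.339), where it was called without anti-CD3 replicate 1 (-0.22). Its other 2 probe sets, dim at 6.62 and 6.57, gave -0.20 and 0.05 in the conventional clone, and with the mean of its probe sets that call was lost (-0.16, adjusted p = 0.079).

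**Figure D3:**
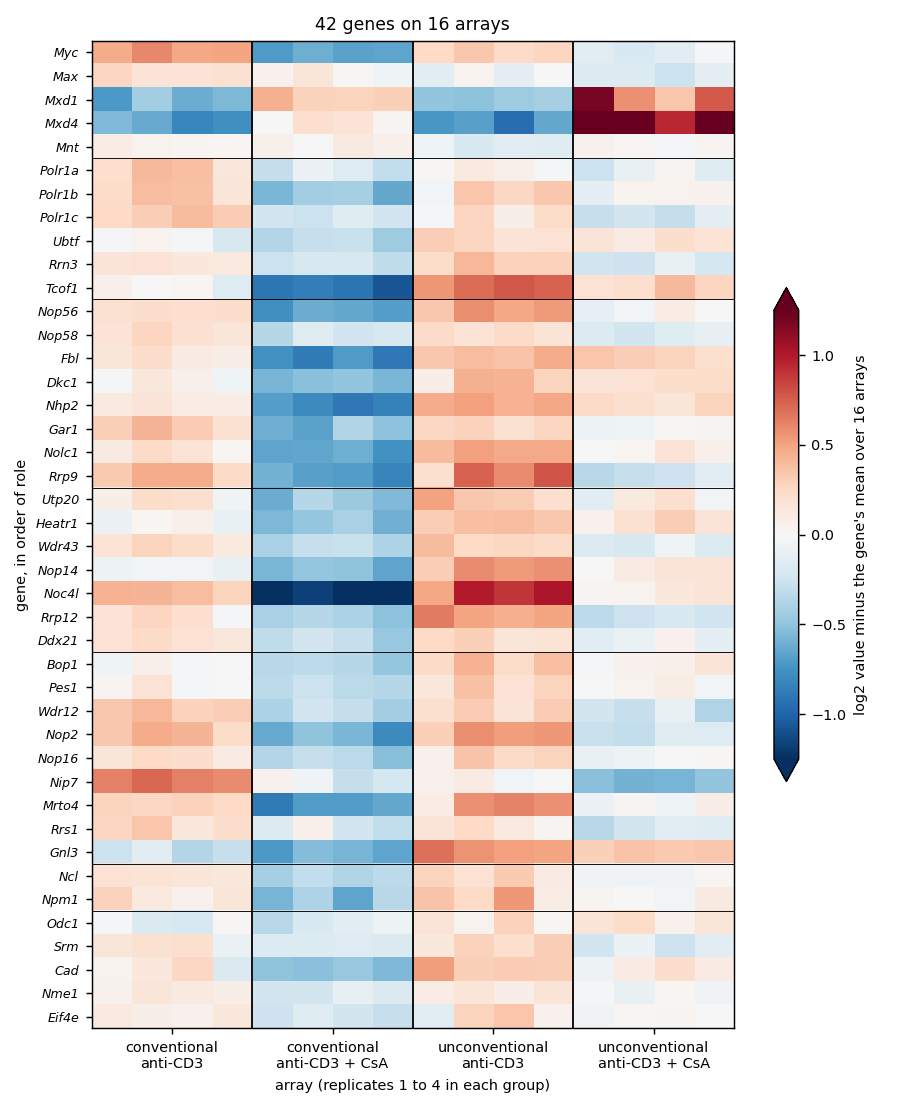
Log2 value of each of the 42 genes on each of the 16 arrays, minus that gene's mean over all arrays, as colour, with genes in order of role and arrays in order of group. Of the 37 genes outside the MYC group, 33 have their lowest mean in the conventional clone with CsA.

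The size of the change was smaller in the unconventional clone for 34 of the 37 members that fell in the conventional clone, and the fall was larger there for the other 3 (Rrn3, Rrp12 and Srm). Those 37 were picked by their change in the conventional clone, so this count is a description. The test of the difference itself was called for 14 of 42 members, all with the higher value in the unconventional clone. In limma 0 were called with the lower value, and 22 were higher and 0 lower at an unadjusted p under 0.05. In the brightest 10% of genes 17.0% were called higher and 16.3% lower. For 13 of the 14 the difference was a smaller fall or change in the unconventional clone, and for Mxd4 a larger rise. At 2-fold or more, Myc, Rrp9 and Noc4l fell in the conventional clone and 0 members fell in the unconventional clone. Mxd1 and Mxd4 rose that far in the unconventional clone. In the conventional clone Mxd1 rose by 0.91, and Mrto4 (-0.996) and Nop2 (-0.99) just missed the cut. The difference of effects for Mxd1 was not called. Of all genes, 5.06% and 2.30% were called at 2-fold or more in either direction. Of the 1994 genes in the brightest 10%, 138 and 53 were. The members' counts at this cut are small and lie near these shares.

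The clones were also set against each other, on arrays that the comparisons above share. With anti-CD3 alone, 18 members were called higher in the unconventional clone and 5 lower, with a median of 0.14. Of all genes 20.3% were called higher and 21.7% lower, and of the brightest 10% of genes 35.3% and 29.7%. The members' count called higher lies near the share of bright genes, and the count called lower lies below its share. After median centring the split of 4048 higher and 4328 lower became 4418 and 2952. Gnl3 (0.83, SE 0.07), Tcof1 (0.70, SE 0.08) and Nop14 (0.56, SE 0.07) stood furthest above the conventional clone, and Nip7 stood furthest below it (-0.61, SE 0.07). Myc was lower by a small amount (-0.24, SE 0.06, adjusted p = 0.00373), and this call was lost after median centring (-0.17, adjusted p = 0.0795). Max, Mnt and Polr1a were the other members called lower, and after median centring 20 members were called higher and 1 lower.

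With CsA in both clones, 31 members were called higher in the unconventional clone and 2 lower, with a median of 0.42. Of all genes 21.3% were called higher and 23.0% lower, and of the brightest 10% of genes 39.8% and 33.3%. Noc4l (1.42, SE 0.10), Mxd4 (1.24, SE 0.11), Tcof1 (1.20, SE 0.08), Fbl (1.09, SE 0.07) and Nhp2 (1.02, SE 0.06) had the largest differences. Myc was higher there by 0.54 (SE 0.06, adjusted p = 3.12e-07). Nip7 (-0.42) and Max (-0.22) were lower, and after median centring 1 member was called lower. Eif4e was called higher (0.24), but with the mean of its probe sets it was at -0.08 (adjusted p = 0.346). Outside the MYC group, 29 of 37 members had their highest mean in the unconventional clone with anti-CD3 alone.

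Further genes of the pathway were counted on lists by function. Of 44 other small subunit assembly factors, 37 fell in the conventional clone (median -0.47) and 34 in the unconventional clone (median -0.35). In limma 0 rose in either, also at an unadjusted p under 0.05. Esf1 had the largest fall of the list in the conventional clone (-1.48, and -0.51 in the unconventional clone), and the methyltransferase Dimt1 in the unconventional clone (-0.79, and -0.51 in the conventional clone). Of 40 other large subunit factors, 35 fell and 1 rose in the conventional clone (median -0.51), and 31 fell in the unconventional clone (median -0.37). Lyar fell by 1.22 and 0.62, and Nle1 by 1.06 and 0.75. Rpf1 rose by 0.23 in the conventional clone, a call lost after median centring (0.21) and without conventional anti-CD3 replicates 1, 3 or 4 or conventional CsA replicate 2. The difference of effects was called upward for 18 and downward for 1 of the 84 factors. Of all genes 8.51% and 7.78% were called so, and of the brightest 10% of genes 17.0% and 16.3%. The upward count lies near the share of bright genes, and the downward count lies well below it. The median difference was 0.23 for the small and 0.17 for the large subunit list, against 0.03 over the brightest 10%.

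Of 37 measured ribosomal protein genes, 5 fell in the conventional clone, with a median of -0.04, and 15.5% of all genes fell. Of the 37, 32 were in the brightest 10% of genes, where 35.1% fell. At an unadjusted p under 0.05, 10 of the 37 were lower and 0 higher. In the unconventional clone limma called 0 of 37, with a median of -0.00, and 12.3% of all genes were called lower and 12.6% higher. Of the brightest 10% of genes, 25.9% were called lower there and 23.0% higher. Of the 37, 2 were higher and 2 lower in that clone at an unadjusted p under 0.05. The called counts lie below the shares of bright genes in both clones. This list was not tested against the assembly factors. Rps27l, a paralog of Rps27, had the largest fall (-0.56), and Rpl14, Rpl8, Rps9 and Rpl6 fell by 0.28, 0.27, 0.23 and 0.15. Many ribosomal protein genes have near-identical processed copies, so these values are uncertain. Whether the probe sets used for other genes, such as Eif4e, Fbl and Wdr12, read such copies was not tested.

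**Figure D4:**
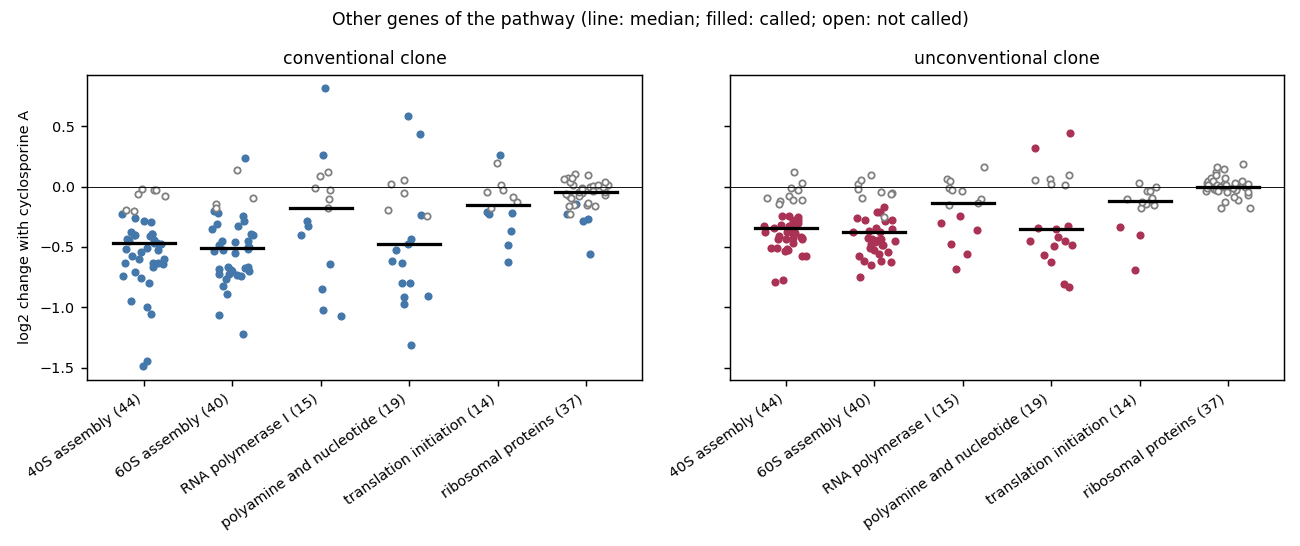
Log2 change with CsA of the measured genes (vertical axis) on 6 lists of further pathway genes, 1 panel per clone, with the number of genes in parentheses; filled points were called, open points were not, and lines are medians. The medians of the small and large subunit assembly lists lie at -0.47 and -0.51 in the conventional clone and at -0.35 and -0.37 in the unconventional clone, while those of the ribosomal proteins lie at -0.04 and -0.00.

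For the lists that follow, 15.5% of all genes fell and 15.9% rose in the conventional clone, and 12.3% and 12.6% in the unconventional clone. Of the brightest 10% of genes the shares were 35.1% and 30.2%, then 25.9% and 23.0%. Of 15 other subunits and factors of RNA polymerase I, 7 fell and 2 rose in the conventional clone, and 6 fell in the unconventional clone. Cd3eap, a subunit of the polymerase, fell by 1.07 and 0.68. Taf1a, a subunit of the promoter selectivity factor, rose by 0.81 in the conventional clone and fell by 0.47 in the unconventional clone, and the difference of -1.29 was called (adjusted p = 2.42e-07). Of 19 other polyamine and nucleotide genes, 12 fell and 2 rose in each clone. Thymidylate synthase (Tyms) fell by 1.31 and 0.81 and CTP synthase (Ctps) by 0.97 and 0.83. Adss, of adenine nucleotide synthesis, rose by 0.58 in the conventional clone and changed by 0.06 (adjusted p = 0.609) in the unconventional clone, a called difference of -0.52 (adjusted p = 0.000245). Oaz2, an antizyme that inhibits ornithine decarboxylase, rose by 0.45 in the unconventional clone and changed by 0.05 (adjusted p = 0.807) in the conventional clone. The difference for Oaz2 was 0.39 (adjusted p = 0.167), not called, and was called without conventional anti-CD3 replicate 3 (0.52, adjusted p = 0.034). Of 14 other translation initiation genes, 6 fell and 1 rose in the conventional clone and 3 fell in the unconventional clone. The falls on this translation initiation list lie near the shares of the brightest 10% of genes called lower, 35.1% and 25.9%. Eif2b3, a subunit of the exchange factor eIF2B, fell by 0.63 and 0.69, and Eif1a rose by 0.26 in the conventional clone and changed by -0.18 (adjusted p = 0.1) in the unconventional clone, a called difference of -0.44 (adjusted p = 0.0064). The unconventional change of Eif1a was called among genes at or above the median level (adjusted p = 0.0477) and without unconventional anti-CD3 replicate 1 (-0.26).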

How the data were processed

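The arrays were read with GCOS and summarised by RMA in Partek 6.2, per the submitters' processing notes, and the authors deposited 1 log2 value per probe set and array. The log2 scale was taken from the values (2.08 to 14.55). A genome build and an annotation version were not given in the sources used here. Array medians lay between 5.16 and 5.35, so the deposited arrays do not share 1 distribution exactly. Which normalization was part of the RMA step is not stated, and normalization between arrays can hide a change shared by most transcripts. Of 28853 probe sets, 21789 had 1 gene symbol, 1621 several and 5443 none, and the brightest probe set by mean level stood for each of 19938 genes. limma 3.58.1 in R 4.3.3 fitted 1 mean per group over all 16 arrays, with moderated variances and Benjamini-Hochberg adjustment over all genes, and was tested on simulated data. The 5 contrasts were the CsA effect of either clone, how far these effects differed, and the clones against each other without and with CsA. Array values were given for Myc and, per role, the member with the largest absolute change in each clone, and for Fbl, chosen after its values were seen. From each further list the largest called rise and fall were named, and Rpl14, Rpl8, Rps9 and Rpl6 as the rest of a count. Other scalings, filters, probe set rules, variance models and samples were tried as alternatives. The members and lists were chosen with earlier results of these data known. The number of arrays limits the precision.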

Additional observations from a re-analysis of the deposited data

Results flagged for a closer look

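The CsA effect in the unconventional clone minus that in the conventional clone was called by limma with Benjamini-Hochberg adjustment for 14 members. It was 0.78 for Myc, 1.29 for Mxd4, 0.58 for Polr1b, 0.50 for Tcof1, 0.39 for Nop56, 0.84 for Fbl, 0.46 for Dkc1, 0.67 for Nhp2, 0.58 for Gar1, 0.40 for Nolc1, 0.32 for Heatr1, 0.95 for Noc4l, 0.53 for Mrto4 and 0.27 for Ncl. Those of Heatr1 and Ncl were not called under several other settings.

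In 9 of 168 groups of 4 arrays (5.36%), 1 array stood far from the other 3 by Dixon's criterion, which chance alone meets in about 1 in 20 groups. In unconventional anti-CD3 replicate 1, Wdr43 (12.04) and Cad (10.72) were above the other arrays and Mrto4 (11.03) was below them. In the unconventional clone with CsA, Polr1b was low in replicate 1 (10.50), Wdr43 high in replicate 3 (11.59) and Ncl high in replicate 4 (12.52). In the conventional clone with CsA, Mxd1 was high in replicate 1 (7.12) and Bop1 low in replicate 4 (9.81), and with anti-CD3 alone Srm was low in replicate 4 (11.88).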

How the results depend on the processing

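Across the alternatives and with each array left out, Myc kept its direction in all 5 comparisons, and its calls were lost once: the lower level in the unconventional clone with anti-CD3 alone, after median centring (-0.17, adjusted p = 0.0795 in limma). With 1 array left out, the change of Myc ranged from -1.19 to -1.14 in the conventional clone and from -0.43 to -0.37 in the unconventional clone, their difference from 0.74 to 0.80, and the clones differed by -0.26 to -0.21 without CsA and by 0.50 to 0.56 with it. The number of members called ranged, over alternatives and over arrays left out, from 38 to 40 and 39 to 40 in the conventional clone, 29 to 35 and 27 to 32 in the unconventional clone, 12 to 18 and 12 to 17 for the difference, 18 to 24 and 19 to 23 between clones without CsA, and 30 to 34 and 30 to 33 with it. The sign turned for Eif4e between the clones with CsA (-0.0803 with the mean of its probe sets). Replicate numbers gave no clear pairing of the arrays, and these values cannot exclude one. Of 24 same-numbered pairs, 3 had deviations correlated above 0.1 (range -0.137 to 0.284), and 7 of 16 arrays correlated best with their own number. With the replicate number as a block, 39, 32, 14, 22 and 32 members were called in the 5 comparisons. The largest shift of the median of all genes by another scaling was 0.0757, between the clones with CsA under cyclic loess.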
